A study of Mus musculus with 26 samples.

Results

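Ighm encodes the constant region of the IgM heavy chain, the first antibody chain that a B cell makes. It is described here together with 9 transcripts that mark B cells or red cells. The 10 genes were found by symbol among the 55487 genes of each count table. Ighm was chosen by its difference between the genotypes in these same libraries, so that difference is given as a description without a test. The other 9 were picked by cell type with earlier results of these data known. The B-cell members were Igkc (the kappa light chain constant region), Jchain (the joining chain of secreted IgM) and Cd79a and Cd79b (the signalling pair of the B-cell receptor). The red-cell members were the beta-globin genes Hbb-bs and Hbb-bt, the alpha-globin genes Hba-a1 and Hba-a2, and Alas2, the erythroid enzyme that starts haem synthesis.

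The study sequenced RNA from frontal cortex of adolescent mice, 7 carrying an Adnp frameshift on one allele (HET) and 7 wild-type littermates (WT), 1 library per mouse as the labels give it. It also deposited 1 list of open-chromatin peaks (ATAC-seq) per genotype. Hi-C maps and open-chromatin samples named PAT and Control were not used here. The labels name no promoter or Cre that would limit the frameshift to a cell type. Levels are in CPM, the counts of a gene relative to its library's size. Adnp mRNA was 6.88 ± 1.27 CPM in HET. In WT it was 6.55 ± 0.861 CPM (SD, n = 7 in both), and since a frameshift need not lower an mRNA this does not check the genotype labels.

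A mature B cell joins V segments to a constant region in both its heavy and its light chain genes, so an antibody mRNA normally carries a V segment as well as Ighm or Igkc. The heavy chain reaches the surface together with a light chain and with CD79A and CD79B. Red cells carry alpha-globin, beta-globin and haem in matched amounts, and in brain RNA their transcripts are a known trace of blood left in the vessels.

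The libraries held between 32814841 (WT 5) and 48291175 (WT 4) counts, with HET inside that range. HET 1, HET 4 and WT 4 were lowest in a list of excitatory cortical neuron markers, with means of 4.89, 3.91 and 5.52 log2 CPM, where the other 11 libraries lay at 6.22 or above. Slc17a7, the vesicular glutamate transporter of cortical neurons, was present in every library, from 136.8 to 1570 CPM in HET and from 463.7 to 1842 CPM in WT. HET 1 to HET 4 are labelled total RNA and the other 10 libraries polyA RNA, although the protocol describes poly-A selection. The molecule label and the genotype therefore partly overlap.

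The globin promoters are shown because these genes moved together across libraries in the values given later. RefSeq (GRCm38.p6) held promoter entries for 7 of the 10 members, which left out Ighm, Igkc and Cd79b. The runs below hold 30 bases each, 5′ to 3′ on the gene's strand, with CCAAT or TATAA in capitals on either strand (ATTGG is CCAAT on the other strand).
Hbb-bs, chr7:103827987-103828016, minus strand: ccctggtaagggCCAATctgctcacacagg
Hbb-bt, chr7:103813981-103814010, minus strand: ccctggcATTGGCCAATctgctcagagagg
Hba-a1, chr11:32283572-32283601, plus strand: agcacaaaccagCCAATgagaactgctcca
Hba-a2, chr11:32296389-32296418, plus strand: agcacaaaccagCCAATgagaactgctcca
Hbb-bs, chr7:103827940-103827969, minus strand: cagggcagagcaTATAAggtgaggtaggat
Hbb-bt, chr7:103813934-103813963, minus strand: cagcATTGGgtaTATAAagctgagcagggt
Hba-a1, chr11:32283633-32283662, plus strand: ccttggagggcaTATAAgtgctacttgctg
Hba-a2, chr11:32296450-32296479, plus strand: ccttggagggcaTATAAgtgctacttgctg

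Starts here are those of RefSeq. The Ensembl gene models used for counting begin further upstream for Hbb-bs, Hbb-bt and Hba-a1, so parts of these windows lie inside the counted genes. The alpha-globin runs were letter for letter the same, and the 100 bases before the start of Hba-a1 and Hba-a2 shared an unbroken run of 97 bases. Hbb-bs and Hbb-bt matched at 73 of 100 bases, with a longest shared run of 14. All 4 globin genes held both motifs in those 100 bases. TATAA was found on either strand in 10.2% of 32851 RefSeq promoters over the same 100 bases, and CCAAT in 18.9%. Alas2 held neither there but held GATAA (read as TTATC), which 8.5% of promoters did. Over 250 bases GATAA was in all 5 red-cell members and in 22.6% of promoters. Over those 250 bases Alas2 also held TATAA, as 22.8% of promoters did. The octamer ATTTGCAT, searched on both strands over 250 bases, was in none of the 7 members and in 1.6% of all promoters.

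Ighm (chromosome 12, 113418558 to 113422730, minus strand, GRCm38) was the member that set the genotypes apart. In HET the lowest count was 265 (HET 6), the median 348 and the highest 530 (HET 3 and HET 5). In WT the lowest was 624 (WT 7), the median 999 and the highest 1434 (WT 2). Scaled to library size, HET lay between 6.82 and 13.8 CPM with a median of 8.04, and WT between 16.8 and 34.7 CPM with a median of 23.2. Every HET library was below every WT library, as was the case for 0.332% of the 18050 genes tested. The mean was 9.27 ± 2.54 CPM over 7 HET libraries and 25.0 ± 7.20 CPM over 7 WT libraries (SD), and WT was 2.70-fold higher. This ordering is part of what chose the gene and carries no test.

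The size of the Ighm difference is described here under other choices of libraries and covariates. These fits reuse the values that chose the gene, so they lend the difference no support. The fitted log2 fold change was -1.43 over all libraries, -1.28 among the libraries labelled polyA RNA alone (3 HET and 7 WT) and -1.28 with the molecule label as a covariate. Within HET, the 4 libraries labelled total RNA lay between 7.29 and 11.1 CPM and the 3 labelled polyA RNA between 6.82 and 13.8 CPM, so the ranges of the 2 labels overlapped. With the haemoglobin sum as a covariate it was -1.62. With the excitatory marker mean as a covariate it was -1.15.

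**Figure D1:**
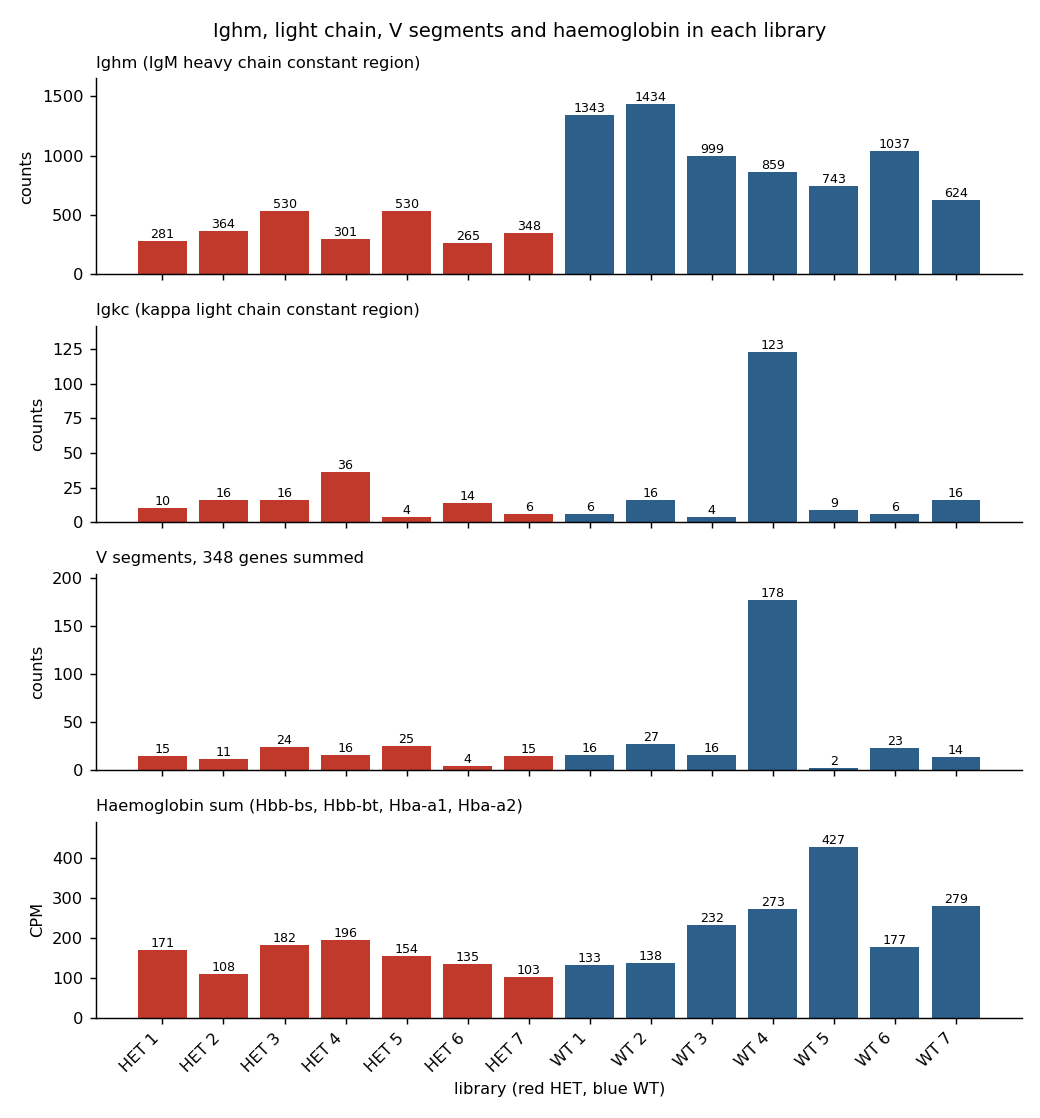
Each bar is 1 library (red HET, blue WT); the upper 3 panels give raw counts of Ighm, of Igkc and of 348 V segments summed, and the lowest panel the summed CPM of the 4 globin genes. Ighm separated the genotypes, with 265 to 530 counts in HET against 624 to 1434 in WT. Igkc (123 counts) and V segments (178 counts) were by far highest in WT 4.

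The B-cell members were near the limit of detection, far below Ighm. Igkc (chromosome 6, 70726435 to 70726966) had 4 to 36 counts in HET, with a median of 14. In WT it had 4 to 16 counts in 6 libraries and 123 in WT 4. Igkc thus did not separate the genotypes, and 1 WT library held more Igkc counts (123) than all 7 HET libraries together (102). Scaled per kilobase of exon, mean Ighm was 13.3 RPKM (CPM per kilobase of exon) in WT, against 1.05 RPKM for Igkc, 0.403 for Cd79a, 0.175 for Cd79b and 0.105 for Jchain. In HET the levels were 4.92 RPKM for Ighm, 0.673 for Igkc, 0.271 for Cd79a, 0.143 for Cd79b and 0.118 for Jchain.

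Cd79a (chromosome 7, 24897381 to 24902197) ranged from 0.153 to 0.645 CPM in HET with a median of 0.441, and from 0.365 to 0.852 CPM in WT with a median of 0.515. Cd79b (chromosome 11, 106311341 to 106314762) ranged from 0.0418 to 0.293 CPM in HET with a median of 0.255, and from 0.0517 to 0.476 CPM in WT with a median of 0.269. Jchain (chromosome 5, 88519809 to 88527891) ranged from 0.155 to 0.645 CPM in HET and from 0.155 to 0.436 CPM in WT, and it did not pass the filter on low counts. The genotypes overlapped for each of these genes. Summed with Igkc, the B-cell members lay between 0.885 and 1.76 CPM in HET and between 0.834 and 1.45 CPM in 6 WT libraries, with 4.07 CPM in WT 4.

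V segments, which the choice of members did not use, were as scarce as the light chain. The 185 Ighv, 160 Igkv and 3 Iglv genes of the annotation together gave 4 to 25 counts in HET and 2 to 27 counts in WT without WT 4. WT 4 gave 178, of which 76 were Ighv and 102 Igkv. For every 100 Ighm counts, V segments gave 1.51 to 5.34 counts in HET, 0.269 to 2.24 counts in 6 WT libraries and 20.7 counts in WT 4. Reads that map to several V genes were left out of the counts, so these ratios can be too low, and by how much was not tested. The library with the most V segment and light chain counts was thus not one with much Ighm: at 17.0 CPM WT 4 was next to lowest among WT. Each library held between 6.98 (WT 4) and 249.75 (WT 3) Ighm counts for each Igkc count. This ratio uses raw counts with no scaling by length, and Ighm has 1886 exon bases against 532 for Igkc. The V segment ratios are not scaled by length either.

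The red-cell members were the abundant ones. Hbb-bs (chromosome 7, 103826534 to 103828096) ran from 49.2 to 94.2 CPM in HET with a median of 73.5, and from 64.7 to 207.2 CPM in WT with a median of 113.2. Hba-a1 (chromosome 11, 32283511 to 32284465) ran from 44.9 to 84.2 CPM in HET with a median of 66.5, and from 55.9 to 178.6 CPM in WT with a median of 99.7. The minor genes were lower, with means of 5.22 ± 1.60 CPM in HET and 9.23 ± 4.88 CPM in WT for Hbb-bt (chromosome 7, 103812524 to 103813996). Hba-a2 (chromosome 11, 32296489 to 32297298) averaged 7.59 ± 1.86 CPM in HET and 11.96 ± 5.35 CPM in WT (all SD over 7 libraries). Alas2 (chromosome X, 150547375 to 150570638) ran from 2.61 to 4.75 CPM in HET with a median of 3.46, and from 2.35 to 10.3 CPM in WT with a median of 4.89.

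For each of these 5 genes all 7 HET libraries lay below the WT median. WT 1, WT 2 and WT 6 lay below the highest HET library, so the groups overlapped. The share of all genes with HET below the WT median was not computed, and these genes moved together across libraries. Reads that map equally to near-identical copies were left out of the counts, so the division between Hba-a1 and Hba-a2, and between Hbb-bs and Hbb-bt, is uncertain, and their sum is the safer value. That sum lay between 103.1 and 195.5 CPM in HET with a median of 153.6, and between 133.1 and 426.9 CPM in WT with a median of 231.6. WT 5 was highest at 426.9 CPM. In bulk tissue, fewer cells of a type and less RNA per cell cannot be told apart.

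**Figure D2:**
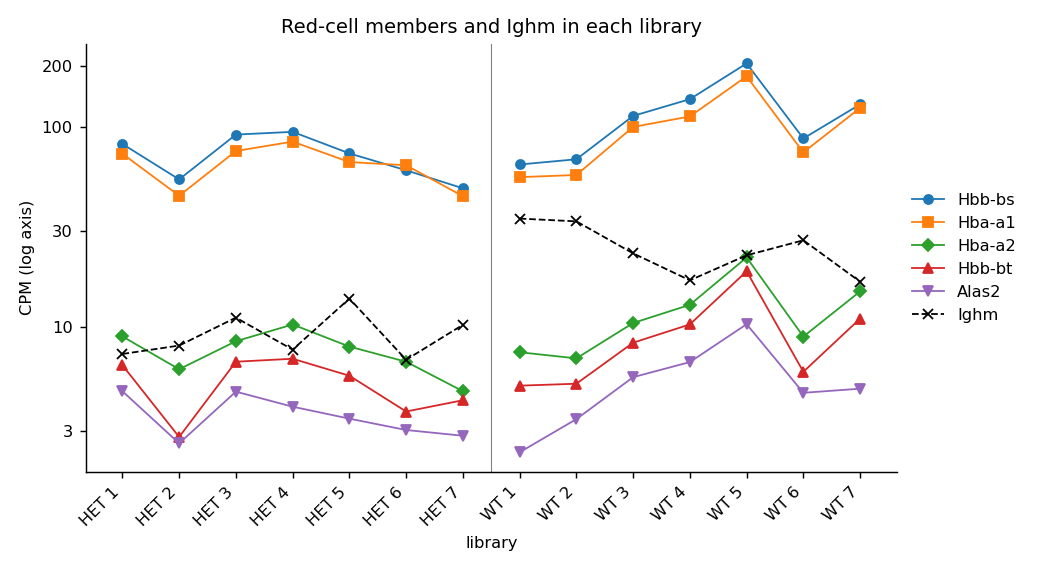
CPM on a log axis in each library for the 4 globin genes and Alas2 (solid lines) and Ighm (dashed line); the lines only link the points of a gene. The 5 red-cell members were high and low in the same libraries, with WT 5 highest for all of them, while Ighm was highest in WT 1 (34.7 CPM), where Alas2 was lowest (2.35 CPM).

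Of the 9 other members, 8 entered edgeR's quasi-likelihood test, with p-values adjusted by Benjamini-Hochberg over all 18050 genes tested. Of all genes, 0.97% were called in either direction and 0.382% as lower in HET. Of the 8 members, 0 were called and 5 had an unadjusted p under 0.05, as 22.2% of all genes had. Those 5 were the red-cell members. Hbb-bs had a log2 fold change of -0.67 (SE 0.25, 95% interval -1.20 to -0.15, adjusted p = 0.138) and Hbb-bt of -0.82 (SE 0.30, adjusted p = 0.136). Hba-a1 gave -0.63 (adjusted p = 0.161), Hba-a2 -0.65 (adjusted p = 0.149) and Alas2 -0.57 (adjusted p = 0.220). DESeq2 called Hbb-bs alone among the members other than Ighm (log2 fold change -0.68, adjusted p = 0.0494), where it called 4.24% of its genes as lower in HET.

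Of the B-cell members, Cd79a had a log2 fold change of -0.58 (SE 0.30, interval -1.22 to 0.06, adjusted p = 0.267 in edgeR) and Cd79b of -0.32 (SE 0.46, adjusted p = 0.725). Igkc gave -0.66 (SE 0.68, interval -2.11 to 0.79, adjusted p = 0.602 in edgeR), and its sign hung on 1 library: without WT 4 it was 0.54 (adjusted p = 0.509). DESeq2, which can replace outlying counts, gave 0.51. Whether it replaced the WT 4 count was not recorded. The fit with no filter on low counts gave Jchain 0.16 (SE 0.41, adjusted p = 0.876 in edgeR). The intervals of Cd79a, Cd79b and Igkc held both 0 and the estimates of the globin genes, so at this depth neither can be set aside.

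**Figure D3:**
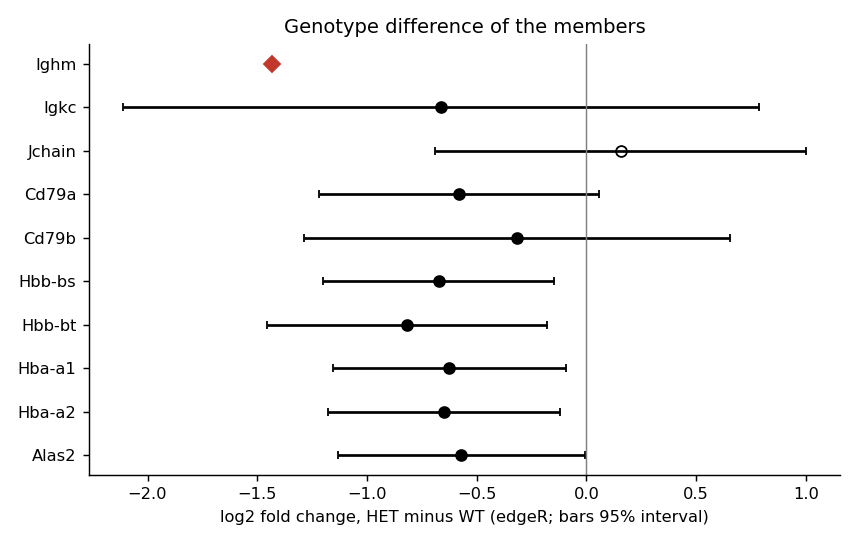
Fitted log2 fold change, HET minus WT, for each member, with 95% intervals as bars; Ighm (diamond) was chosen on this difference and has no interval, and Jchain (open circle) comes from the fit with no filter on low counts. The intervals of the 5 red-cell members lay below 0 before adjustment, with centres from -0.82 to -0.57, and those of the B-cell members crossed 0.

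The next comparison asked whether Ighm follows the B-cell or the haemoglobin transcripts from library to library. It was made within each genotype, since the groups did not overlap in Ighm, and the relation inside a genotype does not use the difference that chose the gene. Log2 CPM of Ighm was set against the log2 of each sum in 7 libraries, with two-sided exact permutation tests over 5040 pairings and Benjamini-Hochberg adjustment over 4 relations. With the B-cell sum, Pearson's r was -0.37 in HET (exact permutation p = 0.409, adjusted 0.546; Spearman's rho -0.46, p = 0.302, adjusted 0.403). In WT it was -0.55 (exact permutation p = 0.220, adjusted 0.440; rho -0.46, p = 0.302, adjusted 0.403). No rise of Ighm with the B-cell sum was seen in either genotype. The B-cell members had few counts in each library, so 7 libraries could miss a relation.

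With the haemoglobin sum, r was -0.00054 in HET (exact permutation p = 0.999, adjusted 0.999; rho -0.036, p = 0.963, adjusted 0.963). In WT r was -0.77 (exact permutation p = 0.0480, adjusted 0.192) and rho -0.89 (p = 0.0123, adjusted 0.0492), so WT libraries with more haemoglobin had less Ighm by rank, and Pearson's r did not pass the adjustment. Whether the relation differed between HET and WT was not tested.

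Leaving out the 2 libraries farthest from the median of each sum gave r = -0.39 in HET and -0.30 in WT for the B-cell sum. For the haemoglobin sum it gave 0.06 in HET and -0.98 in WT, where WT 1 and WT 5 were left out. The WT library that set Pearson's r back was WT 5, singled out after its values were seen. Without it r was -0.98 (exact permutation, adjusted p = 0.0278). Without any other WT library r was no closer to 0 than -0.67, and the adjusted p lay between 0.25 and 0.481 (exact permutation). For Pearson's r in WT, passing the threshold thus rested on leaving out WT 5. By rank the adjusted p with all 7 WT libraries was 0.0492 (exact permutation), just under the threshold.

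**Figure D4:**
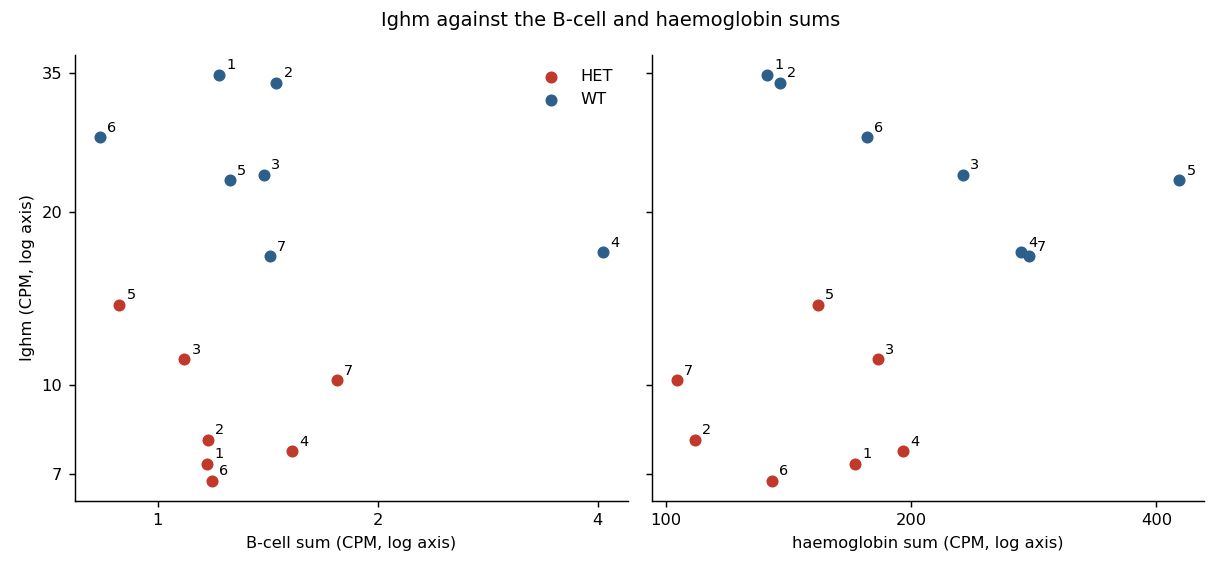
Ighm (CPM, log axis) against the B-cell sum (left) and the haemoglobin sum (right), both in CPM on log axes; each point is 1 library with its number, red HET and blue WT. WT 4 lay alone at a B-cell sum of 4.07 CPM with 17.0 CPM of Ighm, and the WT points in the right panel ran downward apart from WT 5.

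Single members gave the same picture. Across 18 relations (9 members, each in HET and in WT), no Pearson or Spearman value passed the adjustment over that family, and the smallest adjusted p was 0.0738 by rank (exact permutation). The lowest r was for Jchain in WT, at -0.84 (exact permutation p = 0.0123, adjusted 0.221), a gene with 6 to 22 counts a library. The highest was for Jchain in HET, at 0.43 (exact permutation p = 0.376, adjusted 0.616). In WT the globin genes lay between -0.78 (Hba-a1) and -0.71 (Hbb-bt).

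The red-cell members followed one another closely. The beta-globin and alpha-globin sums had r = 0.95 in HET (exact permutation p = 0.000198, adjusted 0.00119 over 6 relations) and 0.99 in WT (exact permutation p = 0.000595, adjusted 0.00179). The haemoglobin sum and Alas2, which lies on another chromosome, had r = 0.89 in HET (exact permutation p = 0.0133, adjusted 0.0199) and 0.93 in WT (exact permutation p = 0.00278, adjusted 0.00556). These relations held with r of at least 0.76 when the 2 farthest libraries were left out. The haemoglobin sum and the B-cell sum had r = -0.28 in HET and 0.27 in WT (exact permutation, adjusted p = 0.597 for both). Without the 2 farthest libraries these values were 0.49 and 0.50, so the relation was not settled by 7 libraries.

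Likeness to Ighm was also ranked over 12784 genes by Pearson's r over the 14 libraries, after the mean of each genotype was taken away. These values describe the pattern and carry no p, since the libraries share their tissue makeup. The most like were Atg2a (r = 0.93, an autophagy lipid transfer protein), Prex1 (0.91, a Rac exchange factor), Flrt1 (0.91), Smurf1 (0.90, a ubiquitin ligase) and Atp2b2 (0.90, a plasma membrane calcium pump). Arrb1 (0.90), Mical3 (0.90), Layn (0.89), Man2a1 (0.88) and Inhba (0.88, an activin subunit) came next. Genes with a mean under 1 log2 CPM were not ranked, so Igkc, Jchain, Cd79a and Cd79b could not appear. Blnk, a B-cell adaptor, ranked 271 (r = 0.74). The most opposed were Fam213a (-0.97), Ik (-0.94), Rpl7 (-0.94, a ribosomal protein), Tbca (-0.93) and Rraga (-0.93). The haemoglobin members ranked between 9658 (Hbb-bt) and 11291 (Hba-a1) of 12784, and Alas2 ranked 10468.

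Exon length moved with this likeness. The 108 genes with r above 0.8 had a median exon length of 7420 bases and the 142 genes with r under -0.8 of 3305 bases, against 4747 bases over all genes ranked. Ighm itself has 1886 exon bases, shorter than each of these medians. The 142 genes with r under -0.8 held 22 of the 90 ribosomal protein genes. The cut at 0.8 was chosen after the values were seen, and the part of length in the Ighm pattern was not tested. For the haemoglobin sum the most like gene outside the globins was Alas2 (r = 0.92), followed by Lhpp (0.88), Ift27 (0.86), Nat8f4 (0.85) and Dnaic2 (0.84).

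Among the 12 immunoglobulin constant regions, 3 besides Ighm passed the filter (Ighg2c, Ighd and Igkc), and edgeR called 0 of them. Their median log2 fold change was -1.01, beside 0.02 over all genes tested. Ighg2c, the constant region of an IgG subclass 129.63 kb from Ighm (chromosome 12, 113285325 to 113288932), had 7 to 64 counts in HET and 26 to 171 counts in WT. Its log2 fold change was -1.61 (SE 0.52, adjusted p = 0.102 in edgeR), and -1.79 without WT 4 (adjusted p = 0.0320). WT 4 was singled out after its values were seen, and without it edgeR called 9.18% of all genes (4.83% as lower in HET), so calls made without it are read against that share. Ighd, which is spliced from the same primary transcript as Ighm in naive B cells, had 0 to 16 counts in HET and 8 to 26 in WT (log2 fold change -1.01, adjusted p = 0.222 in edgeR). Ighg2c thus shared the Ighm direction with overlapping groups, and its lowest WT value was in WT 4.

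Trbc2, a constant region of the T-cell receptor beta chain on chromosome 6 (41546730 to 41548352), also had its highest counts in WT libraries. It had 52 to 201 counts in HET and 164 to 617 counts in 6 WT libraries, with 20 counts in WT 4, below every HET library. The log2 fold change was -1.69 (SE 0.53, adjusted p = 0.0990 in edgeR), and -1.91 without WT 4 (adjusted p = 0.00787). Its V segments were scarce: the 35 Trbv genes gave 0 to 15 counts in HET and 0 to 4 in WT. Cd3e, a core T-cell receptor subunit, had 0 to 22 counts in any library. Of the 5 T-cell genes tested, edgeR called 0, and 3 had an unadjusted p under 0.05 (22.2% of all genes). Of these 5, 4 had positive values and the median was 0.67.

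Ighm was higher where Ighg2c was higher among WT libraries (r = 0.88, exact permutation p = 0.00258, adjusted 0.0270 over 12 relations; rho 0.93, adjusted 0.0810) and with Trbc2 (r = 0.76, exact permutation p = 0.00635, adjusted 0.0270; rho 0.82, adjusted 0.137). In HET the values were 0.46 (exact permutation, adjusted p = 0.435) and 0.08 (exact permutation, adjusted p = 0.867). Without the 2 farthest libraries they were 0.90 and 0.94 in HET, and 0.90 for both in WT, so the HET values rest on those libraries. These pairs were picked after their values were seen. Among WT libraries both partners were also higher where the excitatory marker mean was higher, Ighg2c with r = 0.94 (exact permutation, adjusted p = 0.0270) and Trbc2 with r = 0.94 (exact permutation, adjusted p = 0.0369). Without WT 1 and WT 4 those values were 0.65 and 0.56. Ighm itself had r = 0.71 with the excitatory mean in WT (exact permutation p = 0.0611, adjusted 0.147) and 0.32 in HET (exact permutation p = 0.503, adjusted 0.604). Without the 2 farthest libraries these were 0.49 in WT and -0.67 in HET, so neither relation held.

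**Figure D5:**
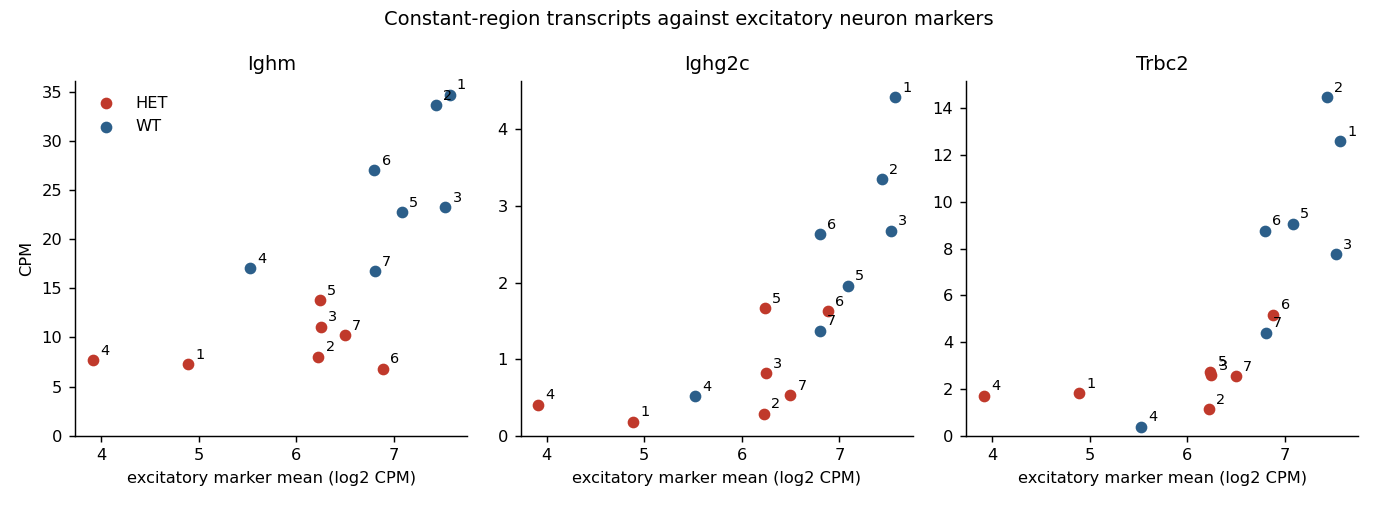
CPM of Ighm, Ighg2c and Trbc2 against the mean log2 CPM of 10 excitatory neuron markers; each point is 1 library with its number, red HET and blue WT. HET 4, HET 1 and WT 4 lay lowest on the marker axis, at 3.91, 4.89 and 5.52 log2 CPM.

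Excitatory markers are given beside Ighm because their levels varied widely between libraries. All 10 had negative log2 fold changes with a median of -0.84. Of the 10, edgeR called 0 (0.97% of all genes) and 6 had an unadjusted p under 0.05 (22.2% of all genes). Their summed level ran from 993.7 to 5509 CPM in HET and from 2465 to 6653 CPM in WT. The 11 immediate early genes, which neurons switch on with activity, had a median of -1.16. Of the 11, edgeR called 0, while 9 had an unadjusted p under 0.05, above the share of all genes. Their sum did not overlap, with 186.8 to 830.3 CPM in HET and 922.8 to 2371 CPM in WT. No share over all genes was computed for sums. Within genotypes Ighm had r = 0.39 (HET) and -0.07 (WT) with the immediate early mean (exact permutation, adjusted p = 0.575 and 0.867). Without the 2 farthest libraries they turned to -0.41 and 0.76. Thalamic neuron markers had a median of 1.21 with 0 of 7 called, and 4 had an unadjusted p under 0.05 in edgeR. The part of the tissue makeup in the Ighm difference was not tested.

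Other B-lineage genes were too few to be set against the share called over all genes. Of the 9 tested genes of the B-cell receptor and surface list, edgeR called 0 (0.97% of all genes) and 2 had an unadjusted p under 0.05 (22.2% of all genes). The median was -0.05, with 4 positive and 5 negative values. The surface marker Ms4a1 had 0 to 8 counts in any library and was not tested. Blnk, an adaptor of B-cell receptor signalling, had the highest mean of the list over all libraries. It had 48 to 199 counts in HET and 148 to 409 in WT (log2 fold change -1.17, SE 0.31, adjusted p = 0.0679 in edgeR), and -1.30 without WT 4 (adjusted p = 0.0152), the lowest of the WT libraries for this gene. Bank1, a B-cell scaffold protein, gave -0.83 (adjusted p = 0.115 in edgeR).

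Of the 5 tested B-lineage transcription factors, edgeR called 0, and 2 had an unadjusted p under 0.05 (22.2% of all genes). The median was -0.01, with 2 positive and 3 negative values. Ebf1, a B-cell factor that pericytes also express, gave 1.10 (adjusted p = 0.0683 in edgeR). Pax5 gave 2.58 (adjusted p = 0.127 in edgeR): HET 1, HET 2 and HET 7 had 172, 233 and 176 counts, and the other 11 libraries 2 to 24. Pax5 is also expressed in the midbrain. Of 6 plasma cell genes edgeR called 0, and 3 had an unadjusted p under 0.05. Their median was -0.14, with 2 positive and 4 negative values.

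Among the haemoglobin genes outside the members, Hbq1a went the other way. This theta-globin gene (chromosome 11, 32300069 to 32300873) had 33 to 61 counts in HET and 4 to 28 in WT, so the groups did not overlap, as for 0.421% of genes with every HET library above every WT library. It rose in HET, with a log2 fold change of 1.70 (SE 0.30, adjusted p = 0.0305 in edgeR). The call held in 9 of 22 alternative fits, and the estimate stayed between 1.52 and 1.85 in all of them. Its near-identical copy Hbq1b had 0 to 21 counts. Of the 5 tested haemoglobin genes, 1 rose, 0 fell and the median was -0.65.

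Red-cell genes other than globins were low or mixed. Slc4a1, the anion exchanger of the red-cell membrane, had 2 to 32 counts in any library. Klf1, the erythroid transcription factor, had 2 to 16 counts. Neither was tested. Of the 4 genes of the red-cell membrane and lineage list that were tested, 0 were called and the median was 0.38. An unadjusted p under 0.05 in edgeR was found for 2 of them (22.2% of all genes). Ank1, an ankyrin that neurons also express, gave 0.55 (adjusted p = 0.123 in edgeR), and Tal1, a factor of red-cell and midbrain development, gave 2.04 (adjusted p = 0.0626). The 11 haem synthesis genes, which every cell uses, had a median of -0.01 with 0 called.

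Of 107 annotated genes within 500 kb of Ighm on chromosome 12, 11 had a gene symbol and a mean of at least 1 CPM. Among these, edgeR called 0 (0.97% of all genes) and 4 had an unadjusted p under 0.05 (22.2% of all genes), too few genes to say whether neighbours differ from others. After Ighg2c the nearest were Tmem121 (log2 fold change -0.10, adjusted p = 0.437), Tedc1 (0.32, 0.407), Crip1 (0.03, 0.931), Crip2 (-0.61, 0.0843) and Mta1 (-0.16, 0.152), all from edgeR. No other annotated gene overlapped Ighm. Crip2, a LIM-domain protein, gave -0.66 without WT 4 (adjusted p = 0.0400).

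Open chromatin gave no landmark at the members. None of the 10 had a peak within 2 kb of its start or in its body in either list, whereas 66.2% of tested genes had a peak within 2 kb of the start in the HET list and 59.3% in the WT list. The HET list held 30862 peaks and the WT list 19272, and with 1 list per genotype no replicate check was possible. The peak nearest to Ighm lay 20.8 kb from its start in HET (chr12:113401648-113401954) and 20.7 kb in WT (chr12:113401681-113402034), in the same place. A peak 16.6 kb from Igkc was likewise in both lists, and one 15.5 kb (HET) or 15.6 kb (WT) from Hba-a1. Near Alas2 the closest peak was 40.7 kb away in HET and 68.7 kb away in WT.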

How the data were processed

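RNA was measured in 14 frontal cortex libraries, 7 HET and 7 WT. For each library the authors deposited a table of unnormalised counts. Exonic reads were assigned to gene IDs of Ensembl GRCm38 release 102 by featureCounts 2.0.1 without regard to strand (setting 0), per the file headers. Each mate could count by itself, and reads mapping to several places were left out by default, so antisense reads are not separated and near-identical copies lose reads. STAR, Trimmomatic, Subread and DESeq2 are named without versions, per the submitters' processing notes. The deposited peak lists hold chromosome, start and end (mm10), with no height. The sources used here do not say which libraries were merged.

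Genes were filtered with filterByExpr (18050 kept), scaled by TMM and fitted by edgeR 4.0.16 with genotype alone (robust quasi-likelihood test, two-sided, adjusted p under 0.05). CPM values are TMM-scaled, and log2 CPM has a prior count of 2. Correlations used exact permutation of pairings. The closest of 91 library pairs differed with a chi-square of 10.2 per degree of freedom, so none looked like a copy. The fit was tested on simulated data. Alternatives were DESeq2 1.42.0, its size factors, other filters, a replicate block, covariates and each library left out. The 10 members and 24 gene lists were chosen with earlier results of these data known. Genes named were the members, up to 4 of the highest and 4 called of each list, those most like Ighm or the haemoglobin sum, and up to 6 neighbours of Ighm. Those named outside this rule (Ms4a1, Cd3e, Slc4a1, Klf1, Hbq1b) were added after values were seen. Some genes are not reported here.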

Additional observations from a re-analysis of the deposited data

Results flagged for a closer look

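Each member, the summed V segments and the B-cell and haemoglobin sums were examined in HET and in WT (26 groups of 7 libraries) for a library far from the other 6 by Dixon's criterion. Chance marks about 1 group in 20, and 5 were marked here. Igkc in WT 4 stood at 2.44 CPM, V segments in WT 4 at 178 counts and the B-cell sum in WT 4 at 4.07 CPM. These 3 rest on the same library and on overlapping genes. Igkc in HET 4 stood at 0.917 CPM, which is 36 counts. Hbb-bt in WT 5 stood at 18.9 CPM, in the library with the highest haemoglobin sum.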

How the results depend on the processing

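The Ighm difference lay between -1.62 and -1.15 on the log2 scale over 24 alternatives. They reuse libraries that chose the gene, so this range is a description. No other member was called in 23 of 24 alternatives, and DESeq2 called 1 (Hbb-bs, -0.68). Igkc turned positive with the haemoglobin sum as a covariate (0.19), without WT 4 (0.54), in DESeq2 (0.51), and its range with 1 library left out was -1.09 to 0.54. It was also positive without HET 1, HET 4 and WT 4 (0.12, chosen after seeing the data). With the haemoglobin sum as a covariate, which holds the globin genes themselves, Hba-a1 (0.037) and Alas2 (0.093) also turned positive. The r of Ighm with the haemoglobin sum in HET was near 0 and changed sign with the mean of the members' log2 CPM (0.054) and without the 3 libraries (0.43). With 1 library left out at a time the HET range was -0.16 to 0.17 and the WT range -0.98 to -0.67. With the B-cell sum the HET range was -0.75 to 0.18 and the WT range -0.68 to -0.20. The cause of these moves was not tested. Labels number the libraries 1 to 7 in both genotypes, but same-numbered libraries did not deviate together (r over genes from -0.28 to 0.33, above 0.1 in 2 of 7 pairs, and 1 of 7 HET libraries matched its own number best), so the numbers were not taken as pairs. A replicate block left the Ighm difference at -1.42 and called 0 other members. The r of HET minus WT differences in Ighm and in the haemoglobin sum was -0.83 (exact permutation, adjusted p = 0.0175). This passed the threshold that Pearson's r within HET or WT did not pass. Those differences join libraries that are not known to be paired, and another numbering would give other differences. No relation is read from that value. Low counts limit the B-cell members, whose intervals span both 0 and the globin estimates.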

Other observations

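Other cell types that could carry blood or border signal were read from the same fit. No gene of the NK cell list passed the filter. In the neutrophil (3 tested), platelet (4), monocyte and antigen presentation (6), border macrophage (5), meningeal fibroblast (10), endothelium (8) and choroid plexus (7) lists, 0 genes were called, and the medians were 0.18, 0.03, 0.26, 0.00, 0.13, 0.03 and -0.12. Endothelial genes, which mark the vessels, summed to 255.8 to 322.0 CPM in HET and 273.4 to 315.2 CPM in WT, so vessel markers overlapped closely while haemoglobin varied 4.14-fold between libraries. The 8 microglial genes all had negative values with a median of -0.20 and 0 called, and 4 had an unadjusted p under 0.05 in edgeR (22.2% of all genes).

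Neuronal and glial lists beside these were the interneuron (median -0.12), striatal (0.40), astrocyte (0.15) and oligodendrocyte (0.16) lists, with 0 genes called in each. At unadjusted p under 0.05 in edgeR were 2 astrocyte genes and 0 in the other lists named here. Lcn2, a neutrophil and inflammation gene, reached 23.3 CPM in 1 HET library and 19.8 CPM in 1 WT library, against medians of 0.306 and 0.873 CPM. Trav segments, the V segments of the T-cell receptor alpha chain, gave 5 to 35 counts in HET and 9 to 26 in WT. The haemoglobin sum was 10.1 to 25.5 times the Ighm level in HET and 3.84 to 18.8 times in WT.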
